A study of Homo sapiens with 8 samples.

Results

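The peaks described here are all accessible regions on human chromosome 13 in the deposited union table of an ATAC-seq experiment, 1155 of 62528 peaks in all. They were chosen by chromosome name alone, and 1146 of them passed the filter of a mean of at least 2 CPM (counts scaled to a common library depth, the unit of all peak levels given here) over the libraries, as did 62234 peaks of the whole table. The experiment used the human multiple myeloma cell lines JJN3 and KMS11, kept for 48 h with 200 nM pomalidomide, with 40 nM GNE-781, with both drugs, or with the solvent DMSO. Each line and treatment had 1 library, 8 in all, so the groups were JJN3 with pomalidomide, with GNE-781, with the combination and with DMSO, and KMS11 with the same 4. Nothing in the labels says whether libraries of a line came from separate cultures, so p-values measure only the spread between these libraries. Cells with added BATF or eGFP, named in the design text, were not analysed here.

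Loss of all or part of chromosome 13 is one of the most frequent chromosome changes in myeloma. Band 13q14 draws most attention because it holds the retinoblastoma gene RB1, which restrains entry into the cell cycle, and the microRNAs miR-15a and miR-16-1, which lie inside the long non-coding RNA gene DLEU2 and are lost in many chronic lymphocytic leukaemias. ATAC-seq counts where a transposase cuts accessible DNA, so a count scales both with how open a region is and with how many copies of it a cell carries. Pomalidomide binds the ubiquitin ligase subunit cereblon and brings about the degradation of the lymphoid transcription factors IKZF1 and IKZF3, and GNE-781 is an inhibitor of the EP300 and CREBBP bromodomains.

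The sequences that bear on the results come from RefSeq (GRCh38.p14). The mature microRNAs of 13q14 are shown first, since the deletion region is best known for them, with the seed (bases 2 to 8) in capitals.
hsa-miR-15a-5p: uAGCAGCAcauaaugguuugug
hsa-miR-16-5p: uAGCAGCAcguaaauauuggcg
Both carry the seed AGCAGCA and are encoded on the minus strand, miR-15a at chr13:50049167-50049188 and miR-16 at chr13:50049027-50049048. No tested peak overlapped them: the nearest, at a DLEU2 start (chr13:50081183-50081483), lay 31995 bases away. Of 34 microRNA hairpins on chromosome 13 in the RefSeq table, 3 lay under a tested peak.

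Printed next are 4 promoter windows, each from 250 bases before to 50 bases after a transcript start. GTF2F2 (plus strand, chr13:45120260-45120559) and TPT1 (minus strand, chr13:45341134-45341433) stand on either side of the place where, judged by eye, the line ratio changed along the chromosome. LACC1 (plus strand, chr13:43878928-43879227) and CCDC122 (minus strand, chr13:43879312-43879611) start under 1 peak, the only called promoter peak of the chromosome in the drug comparisons. Capitals mark the GC box (GGGCGG, or CCGCCC on the other strand).
GTF2F2: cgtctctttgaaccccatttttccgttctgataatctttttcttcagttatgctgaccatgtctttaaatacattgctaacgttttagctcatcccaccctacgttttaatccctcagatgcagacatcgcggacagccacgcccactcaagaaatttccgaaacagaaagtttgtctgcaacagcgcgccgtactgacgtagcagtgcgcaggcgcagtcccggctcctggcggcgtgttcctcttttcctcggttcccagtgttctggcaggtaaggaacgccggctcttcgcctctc
TPT1: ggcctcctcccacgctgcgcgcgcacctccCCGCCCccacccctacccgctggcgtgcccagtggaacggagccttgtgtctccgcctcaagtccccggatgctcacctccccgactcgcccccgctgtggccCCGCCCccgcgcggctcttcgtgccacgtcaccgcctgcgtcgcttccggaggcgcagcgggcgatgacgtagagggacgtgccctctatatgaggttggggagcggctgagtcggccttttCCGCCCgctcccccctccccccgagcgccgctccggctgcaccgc
LACC1: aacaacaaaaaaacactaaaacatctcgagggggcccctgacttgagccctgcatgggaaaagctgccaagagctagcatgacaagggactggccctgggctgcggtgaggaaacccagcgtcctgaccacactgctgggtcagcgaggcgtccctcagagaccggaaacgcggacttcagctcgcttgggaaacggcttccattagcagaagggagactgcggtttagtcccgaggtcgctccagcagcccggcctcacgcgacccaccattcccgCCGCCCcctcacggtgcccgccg
CCDC122: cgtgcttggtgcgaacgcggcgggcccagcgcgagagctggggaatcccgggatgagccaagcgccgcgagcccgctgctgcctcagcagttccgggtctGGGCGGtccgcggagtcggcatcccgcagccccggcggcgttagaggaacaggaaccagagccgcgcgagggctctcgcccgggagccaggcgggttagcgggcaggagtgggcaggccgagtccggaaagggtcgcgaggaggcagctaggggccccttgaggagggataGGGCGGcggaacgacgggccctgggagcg
The GC box occurred 3 times in the TPT1 window, 1 time in that of LACC1 and 2 times in that of CCDC122, and 0 times in that of GTF2F2. It is present in 45% of 35116 RefSeq promoter windows of the same length and in 35.2% of the 892 on chromosome 13. The AP-1 motif (TGANTCA), the ETS motif (GGAAGT) and the CCAAT box (CCAAT) were searched on both strands as well and matched none of the 4 windows, while 7.71%, 22.8% and 34.6% of all windows hold them. The GC content of the windows was 51.3% for GTF2F2, 74.0% for TPT1, 62.0% for LACC1 and 73.3% for CCDC122, beside a median of 58.7% over all windows. A match or its absence describes these windows only.

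Library totals over all peaks were 1366628 to 3218581 counts in JJN3 and 2981408 to 5435673 in KMS11, and the JJN3 DMSO library was the shallowest. Chromosome 13 received 21212 to 51172 of them in JJN3 and 42802 to 82672 in KMS11. The median chromosome 13 peak thus had 11 to 25 counts in JJN3 libraries and 21 to 41 in KMS11 libraries, which limits what can be detected at single peaks. Promoter peaks of plasma cell markers were present for 7 of 8 genes (FCRL5, IRF4, POU2AF1, PRDM1, SDC1, SLAMF7 and XBP1), with a summed level of 262 to 301 CPM in JJN3 and 208 to 225 CPM in KMS11. No promoter peak was listed for the T cell (CD3E, CD3D, CD2) or myeloid (CD14, CSF1R, LYZ) markers. Among the B cell, erythroid, endothelial and stromal markers PAX5 had 0.97 to 3.85 CPM in JJN3 and 9.7 to 10.1 CPM in KMS11, HBB 1.45 to 12.8 CPM in JJN3 and 1.6 to 5.79 CPM in KMS11, PECAM1 17 to 25 CPM in JJN3 and 8.9 to 17.3 CPM in KMS11, and COL1A1 9.77 to 13.5 CPM in JJN3 and 27.2 to 51.5 CPM in KMS11.

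The chromosome 13 peaks resembled the rest in kind. Of the 1155, 290 (25.1%) were promoter peaks, within 1000 bp of an annotated transcript start, beside 25.4% of the 59505 peaks on other autosomes. A further 466 lay inside genes and 399 between genes. Their median width was 420 bp, beside 431 bp on other autosomes. They were unevenly spread: the most distal 5 Mb step (from 110 Mb) held 167 peaks, whereas the step from 55 to 60 Mb held 22.

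The first question was where the line ratio on chromosome 13 stood against other autosomes. Promoter counts were summed in steps of 5 Mb and given per 1000 promoter counts on the other autosomes. The chromosome had 2 stretches. All 6 steps below 45 Mb were higher in JJN3 than in KMS11, by 1.60- to 2.31-fold. Of the 9 steps above, 7 were lower in JJN3, by a factor of 0.764 to 0.877, and 2 passed no threshold.

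The most proximal step (15 to 20 Mb, 10 promoter peaks) had 0.418, 0.574, 0.508 and 0.486 in JJN3 with pomalidomide, GNE-781, the combination and DMSO, against 0.203, 0.244, 0.239 and 0.239 in KMS11. The step from 20 to 25 Mb (26 promoter peaks) had the largest ratio of the chromosome, with 1.19 ± 0.0465 in JJN3 and 0.514 ± 0.0607 in KMS11 (SD, n = 4 libraries per line). That is a log2 ratio of 1.21 ± 0.07 (SE; edgeR adjusted p = 3.91e-35). No JJN3 library overlapped a KMS11 library in either step.

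The step from 40 to 45 Mb, the last one below the change, had 1.36, 1.29, 1.47 and 1.03 in JJN3 with pomalidomide, GNE-781, the combination and DMSO, against 0.689, 0.609, 0.744 and 0.609 in KMS11. The next step, from 45 to 50 Mb, had 1.89, 1.89, 1.91 and 1.67 in JJN3 against 1.86, 1.84, 1.93 and 1.85 in KMS11. The groups were thus apart in the step before 45 Mb and overlapped in the step after it. The fitted log2 ratio was 0.95 ± 0.07 before and -0.02 ± 0.05 after (SE), and the step from 45 to 50 Mb passed no threshold.

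The other 3 proximal steps had log2 ratios of 0.68 (25 to 30 Mb), 0.87 (30 to 35 Mb) and 0.68 (35 to 40 Mb). Beyond 50 Mb the ratios were -0.21 (50 to 55 Mb), -0.27 (70 to 75 Mb), -0.21 (75 to 80 Mb), -0.22 (90 to 95 Mb), -0.19 (95 to 100 Mb), 0.02 (100 to 105 Mb), -0.33 (105 to 110 Mb) and -0.39 (from 110 Mb to the end). The step at 90 to 95 Mb lost its call when either DMSO library or either combination library was left out, with a log2 ratio of -0.12 to -0.19. Leaving out either library of a treatment gave the same ratio, so these are not separate checks. The last step is the distal end of the long arm, where JJN3 had 2.35 ± 0.142 and KMS11 3.06 ± 0.0605 (SD, n = 4 libraries per line). Steps between 55 and 70 Mb and between 80 and 90 Mb held fewer than 5 promoter peaks each and were not tested. With peaks other than promoters in place of promoters, the 6 proximal steps were again higher, the step from 100 to 105 Mb was called higher at 0.82, and that from 75 to 80 Mb lost its call at -0.04. The steps from 50 to 55 Mb and from 95 to 100 Mb turned round, called higher in JJN3 at 0.17 and 0.25.

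**Figure D1:**
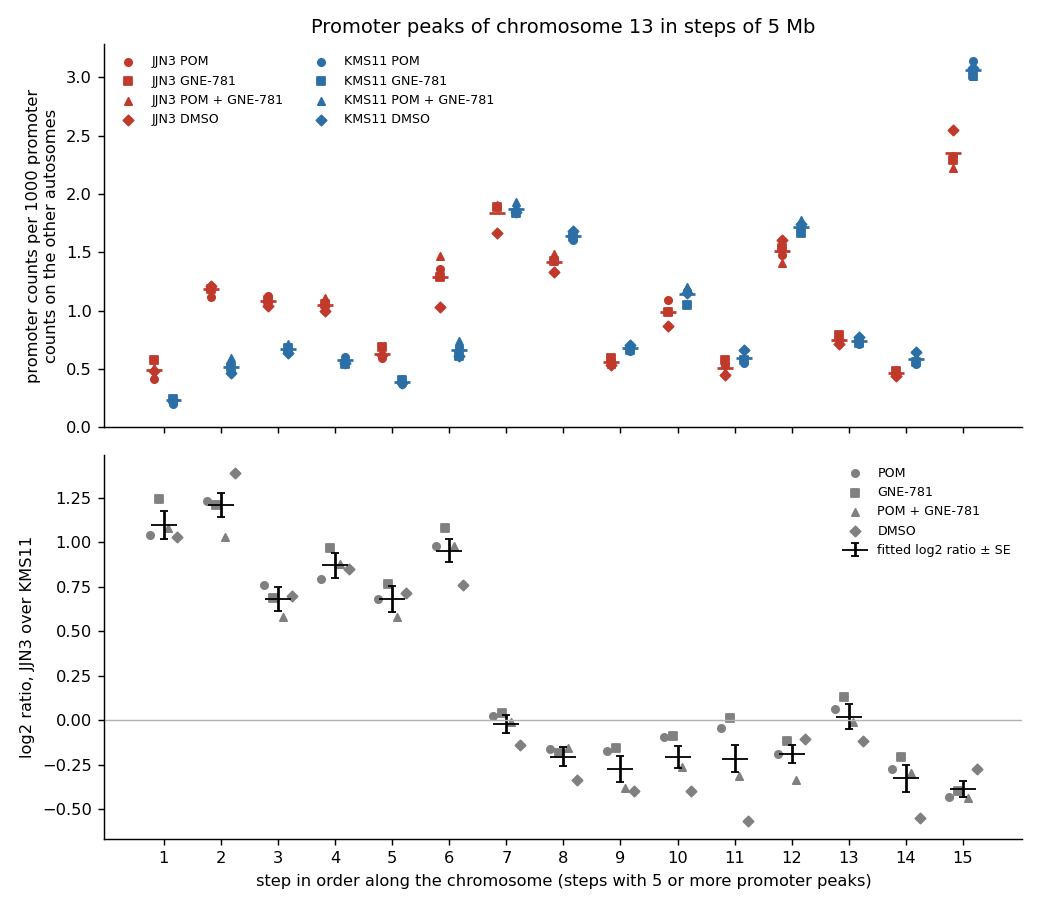
Upper panel, summed promoter counts per 1000 promoter counts on the other autosomes (linear axis) for 15 steps of chromosome 13 in order, JJN3 left of KMS11, 1 point per library and a line at the mean. Lower panel, log2 ratio of JJN3 over KMS11, grey points for each treatment and black bars for the fitted ratio ± SE: steps 1 to 6 lie between 0.68 and 1.21, and steps 7 to 15 between -0.39 and 0.02.

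In counts, 6 steps were higher and 7 lower in JJN3 of 15 tested, 13 in all. Such calls are common between these lines: over all 535 autosomal steps 83% were called, 37.4% higher and 45.6% lower. The JJN3 and KMS11 libraries did not overlap in 11 of the 15 steps, beside 76.6% of all steps. The share of steps called on chromosome 13 (86.7%) was therefore near that of the other autosomes.

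The chromosome varied more along its length than as a whole. The SD of its step log2 ratios was 0.589, the third largest of 22 autosomes after chromosomes 1 (0.75) and 18 (0.683). Its range from lowest to highest step, 1.6 on the log2 scale, ranked sixth. By contrast, its whole-chromosome promoter share ranked 21st in the size of its line difference. The difference between chromosomes was not tested.

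**Figure D2:**
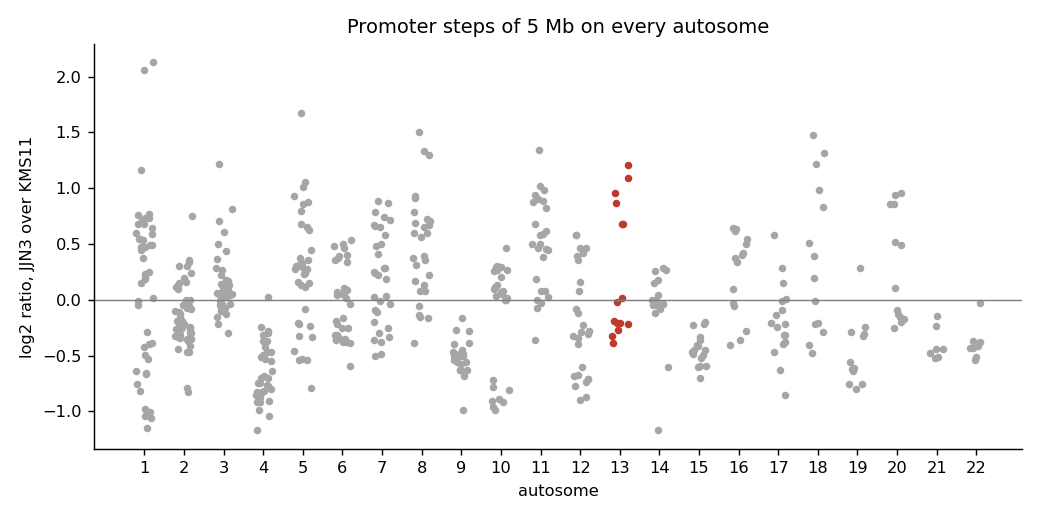
Log2 ratio of JJN3 over KMS11 for each promoter step of 5 Mb, by autosome; each point is 1 step and chromosome 13 is in red. Its 15 steps form a group of 6 between 0.68 and 1.21 and a group of 9 between -0.39 and 0.02.

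Promoter peaks of chromosome 13 amounted to 1.682%, 1.705%, 1.676% and 1.611% of the promoter counts on the other autosomes in JJN3 with pomalidomide, GNE-781, the combination and DMSO, against 1.565%, 1.538%, 1.623% and 1.582% in KMS11. One JJN3 value lay within the KMS11 range. The means were 1.67 ± 0.0404% in JJN3 and 1.58 ± 0.0358% in KMS11 (SD, n = 4 libraries per line), a log2 difference of 0.0814 that missed the threshold (two-sided exact permutation test, p = 0.0571). It passed without JJN3 DMSO, the shallowest library and the JJN3 value within the KMS11 range, at 0.0982 (p = 0.0286, exact permutation test). Without that library the lines no longer overlapped, and this p is the smallest the remaining libraries allow. The promoter counts at 45 to 55 Mb, the stretch holding RB1 and DLEU2, were set against those of the rest of the chromosome. They came to 24.63%, 24.2%, 25.46% and 22.9% of these in JJN3 with pomalidomide, GNE-781, the combination and DMSO, against 28.49%, 29.08%, 28.39% and 28.62% in KMS11. The means were 24.3 ± 1.07% in JJN3 and 28.6 ± 0.307% in KMS11, lower in each JJN3 library than in any KMS11 library, with a log2 difference of -0.239 (p = 0.0286, the smallest the 70 arrangements allow, two-sided exact permutation test). Adjusted over these 2 values, both p-values were 0.0571. The rest of the chromosome includes the proximal stretch, which was higher in JJN3. Set against the part above 55 Mb alone, the log2 difference turned to 0.153 (p = 0.0286, exact permutation test). That alternative was chosen after the data were seen. With peaks other than promoters, against the rest of the chromosome, the log2 difference was 0.0488 (p = 0.6, exact permutation test).

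No change point was fitted. Judged by eye after the values were seen, the ratio changed between the promoters of GTF2F2 and TPT1. The last promoter peak on the higher side was that of GTF2F2, a subunit of the general transcription factor TFIIF (chr13:45120276-45120695), with 15.5 ± 6.72 CPM in JJN3 and 6.94 ± 1.00 CPM in KMS11 (SD, n = 4 libraries per line). Its log2 ratio was 1.17 ± 0.24 (SE; adjusted p = 4.381e-05). The next promoter peak, at an internal start of the same gene (chr13:45206463-45206666), had 3.42 ± 2.64 CPM in JJN3 and 3.48 ± 1.58 CPM in KMS11, a log2 ratio of -0.05 ± 0.43 (SE), too imprecise to place it on either side. The promoter of TPT1, which encodes the translationally controlled tumour protein (chr13:45340469-45341854), had 81.3 ± 9.94 CPM in JJN3 and 79.6 ± 5.69 CPM in KMS11, a log2 ratio of 0.03 ± 0.13 (SE).

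Other promoters on either side varied. On the near side, the main TSC22D1 promoter (a leucine zipper regulator of transcription; chr13:44576923-44578167) had a log2 ratio of 0.95. Beyond TPT1, the promoters of SLC25A30, COG3, a Golgi transport subunit, and ZC3H13, part of the machinery for RNA adenosine methylation, had log2 ratios of 0.16, -0.06 and 0.12, none of which passed the test. Between COG3 and ZC3H13 the promoter peaks of COX4I1P2 (-1.76) and LINC01055 (-1.23) were called lower in JJN3. Within TSC22D1 an alternative promoter (chr13:44435181-44435617) went the other way, with a log2 ratio of -2.64.

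The stretches were split at 45 Mb after these values were seen, so they are given without a test. Per peak and relative to the other autosomes, where 1 is their average, promoter counts below 45 Mb were 0.735 ± 0.0347 in JJN3 and 0.391 ± 0.0239 in KMS11 (SD, n = 4 libraries per line). At 45 Mb and above they were 0.962 ± 0.021 in JJN3 and 1.12 ± 0.0231 in KMS11. Peaks other than promoters showed the same order below 45 Mb, 0.967 ± 0.0416 in JJN3 and 0.536 ± 0.0278 in KMS11, and lay closer together above it, 0.789 ± 0.0109 in JJN3 and 0.828 ± 0.0202 in KMS11. These ratios cannot tell whether JJN3 carries more or KMS11 less of the proximal stretch, and copy number and accessibility per copy cannot be told apart.

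**Figure D3:**
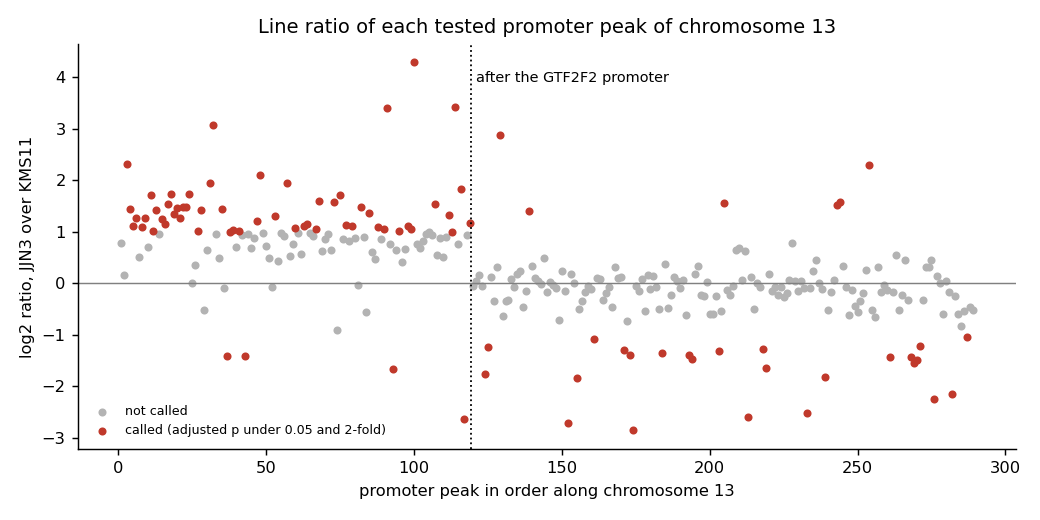
Log2 ratio of JJN3 over KMS11 for the 289 tested promoter peaks in order along chromosome 13, called peaks in red and the others in grey; the dotted line follows the promoter of GTF2F2. Left of the line most points lie above 0, with a median of 0.964 below 45 Mb, and right of it they centre near 0, with a median of -0.124.

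Single peaks followed the same division. Peaks were called between the lines at an adjusted p under 0.05 (edgeR quasi-likelihood test, Benjamini-Hochberg over all peaks) and at least 2-fold. On chromosome 13, 276 peaks were higher and 154 lower in JJN3, 430 of 1146 (37.5%), beside 31.9% of all peaks tested (16.1% higher and 15.8% lower). Below 45 Mb 52.0% of the 279 tested peaks were called higher and 5.73% lower; at 45 Mb and above 15.1% of 867 were called higher and 15.9% lower. Scaling the fit to the median chromosome 13 promoter peak left the total at 430 and gave 240 higher and 190 lower.

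The promoters with the largest ratios towards JJN3 had few counts in KMS11. That of the pseudogene SUGT1P3 (chr13:40921362-40921943) had 27.3, 27.6, 31.5 and 24.1 CPM in JJN3 with pomalidomide, GNE-781, the combination and DMSO, against 1.72, 1.62, 1.42 and 0.776 CPM in KMS11. It had the largest promoter log2 ratio of the chromosome, 4.29 ± 0.28 (SE). Promoters of TRPC4, a cation channel (log2 ratio 3.40), and ENOX1, a cell surface oxidoreductase (3.42), lie in the proximal stretch too, as does that of SPATA13, a guanine nucleotide exchange factor (3.07).

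The fifth, RUBCNL, listed as KIAA0226L (chr13:46387085-46387858), an autophagy gene, lies beyond TPT1. Its levels were 25.7, 21.2, 24.2 and 14.3 CPM in JJN3 with pomalidomide, GNE-781, the combination and DMSO, against 1.93, 3.56, 1.96 and 4.92 CPM in KMS11. Its log2 ratio of 2.88 stood well above that of its step (-0.02).

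Towards KMS11 the promoters with the largest ratios included transcription factors of neural development. SOX21 (chr13:94711043-94713412) had 8, 17.3, 11.2 and 9.02 CPM in JJN3 with pomalidomide, GNE-781, the combination and DMSO, against 57.5, 72.4, 65.4 and 75.1 CPM in KMS11. The groups were far apart, with a log2 ratio of -2.59 ± 0.18 (SE; adjusted p = 3.617e-20). ZIC5 (chr13:99970112-99971138) had 3.98 ± 2.1 CPM in JJN3 and 23 ± 2.98 CPM in KMS11 (SD, n = 4 libraries per line), a log2 ratio of -2.52. The promoter of its neighbour ZIC2 was open in both lines at 57.0 ± 9.28 CPM in JJN3 and 60.8 ± 3.5 CPM in KMS11 and was not called (log2 ratio -0.10). The others were an alternative start of DLEU1 (-2.72), the non-coding RP11-168J5.2 (-2.86) and the TSC22D1 start named above.

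Away from promoters, a peak within CRYL1, which encodes lambda crystallin (chr13:20419560-20420246), had 39, 32.7, 33.5 and 30.1 CPM in JJN3 with pomalidomide, GNE-781, the combination and DMSO, against 1.5, 1.94, 0.534 and 1.55 CPM in KMS11. Its log2 ratio was 4.68 ± 0.28 (SE). A peak in VWA8 (4.32) and one in ENOX1 (3.798) belong to the same stretch. The peaks with the remaining largest ratios, near the pseudogene ATP6V1G1P7 (4.75 and 3.88), lie in the distal part, between genes. They are part of a dense group of 10 tested peaks annotated to that pseudogene, between 103464543 and 104043604 bases. Of these 8 were called higher in JJN3, beside 15.1% of all tested peaks at 45 Mb and above. In the proximal stretch 7 of 8 peaks of ENOX1 and 6 of 8 of ATP8A2, a phospholipid flippase, were called higher. So were 5 of 5 of ALOX5AP, which serves leukotriene synthesis, beside 52.0% of all tested peaks below 45 Mb. These groups, that of ATP6V1G1P7 included, were picked for holding at least 5 called peaks, so their high shares were set by the choice.

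Towards KMS11, peaks within RASA3, a GTPase-activating protein for Ras, included 2 of the largest ratios, -2.80 and -2.69. Of its 24 tested peaks 9 were called lower in JJN3 and 1 higher. At 45 Mb and above, where RASA3 and GAS6 lie, 15.9% of all tested peaks were called lower and 15.1% higher. Both genes were picked for their number of called peaks, so their counts were high by choice. GAS6, the ligand of the TAM receptor kinases, had 6 of 12 peaks called lower and 2 higher; the one with the largest change (chr13:113859884-113860977) had 5.33, 5.13, 7.76 and 4.51 CPM in JJN3 with pomalidomide, GNE-781, the combination and DMSO, against 62.2, 29.8, 42 and 37.3 CPM in KMS11. A peak in MBNL2, a splicing regulator, had a log2 ratio of -3.46, and 1 near AL356253.1 had -3.29.

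Genes of the chromosome were further grouped in 7 lists, 92 genes in all, of which 76 had at least 1 tested peak. Those with no peak annotated to them included RB1, the microRNA genes MIR15A and MIR16-1, TRIM13, TNFSF11 and GPR183. A peak at the start of the divergent transcript of RB1 was tested and is given below. Among genes of the 13q14 deletion region the main promoters had small line ratios. The DLEU2 promoter (chr13:50123784-50126002), from which the microRNA host is transcribed, had 107, 76.3, 85.3 and 61.6 CPM in JJN3 with pomalidomide, GNE-781, the combination and DMSO, against 96, 92.2, 91.9 and 84.1 CPM in KMS11. The groups overlapped and the log2 ratio of -0.14 ± 0.13 (SE) was not called.

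Promoters of KPNA3, a nuclear import receptor, SPRYD7, EBPL, SUCLA2, a subunit of succinyl-CoA ligase, MED4, a Mediator subunit, and INTS6, an Integrator subunit (chr13:51452561-51453803), had log2 ratios of -0.03, -0.10, 0.03, -0.06, 0.23 and -0.17, none called. The promoter peak of LINC00441, which RefSeq lists as RB1-DT, the divergent transcript of RB1, had 26.1 ± 4.88 CPM in JJN3 and 28.7 ± 4.38 CPM in KMS11 (SD, n = 4 libraries per line), a log2 ratio of -0.15 that was not called. Over the list, 13 of 69 peaks were called higher and 2 lower, 21.7%, with a median log2 ratio of 0.145. Over all chromosome 13 peaks, the proximal stretch included, the share was 37.5% and the median 0.0654. At 45 Mb and above, where the peaks named here lie, 15.1% of tested peaks were called higher and 15.9% lower, with a median of -0.0952. Of the higher calls 8 lay inside DLEU1, which had 19 tested peaks, with log2 ratios of 1.01 to 2.05. In the same gene 1 peak was called lower. In the step that starts at 50 Mb, peaks other than promoters together had a log2 ratio of 0.17, called higher in JJN3, and promoters -0.21. DLEU1 was picked for its number of called peaks, so its count of higher calls was high by choice. The RCBTB2 peak at an alternative start (chr13:48492452-48492906) was higher as well, by 1.40.

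Of the B lineage and myeloma list, 14 of 69 peaks were called higher and 4 lower, 26.1%, beside 37.5% of all chromosome 13 peaks, with a median of 0.132. The promoters of DIS3, a catalytic subunit of the RNA exosome that is often mutated in myeloma, and TNFSF13B, which encodes the B cell survival factor BAFF, had log2 ratios of 0.13 and 0.25, neither called. LCP1, which encodes the leukocyte actin bundling protein L-plastin, had 16.3 ± 1.46 CPM in JJN3 and 21.1 ± 1.19 CPM in KMS11 at its main promoter (SD, n = 4 libraries per line), again not called. The host gene MIR17HG of the miR-17 cluster had log2 ratios of -0.13 and -0.23 at its 2 promoter peaks. ELF1, an ETS factor, and FOXO1 lie in the proximal stretch and had log2 ratios of 0.82 and 0.66, under the 2-fold limit.

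Among DNA repair genes, 6 of 17 peaks were called higher and 0 lower, 35.3%, near the 37.5% of all chromosome 13 peaks, with a median of 0.883. The list holds both stretches. BRCA2, central to homologous recombination, shares a promoter peak with ZAR1L (chr13:32315269-32316164). That peak had 38, 35.9, 31 and 37.6 CPM in JJN3 with pomalidomide, GNE-781, the combination and DMSO, against 10.7, 8.73, 11.4 and 12.2 CPM in KMS11, a log2 ratio of 1.71 ± 0.19 (SE; adjusted p = 3.921e-12). The main promoter of PDS5B, a cohesin regulator, was called with 1.124. The distal LIG4, the ligase of non-homologous end joining, and ERCC5, a nuclease of nucleotide excision repair, had log2 ratios of -0.20 and 0.34 at their main promoters, neither called.

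The cell cycle and growth control list had 4 of 32 peaks higher and 5 lower, 28.1% beside 37.5% of all chromosome 13 peaks, with a median of -0.242. Its higher calls were promoters of LATS2, a Hippo pathway kinase (1.53), SKA3, a kinetochore protein (1.35), CENPJ, a centriole protein (1.45), and CDK8, the Mediator kinase (1.02), all below 45 Mb. In the same stretch the promoter of CCNA1, cyclin A1, had a log2 ratio of -0.56, which was not called. The CDK8 call ended when either pomalidomide library was left out, with a log2 ratio just under 1. CDC16, a subunit of the anaphase-promoting complex near the distal end, had 20.2 ± 1.58 CPM in JJN3 and 41.7 ± 1.31 CPM in KMS11 (SD, n = 4 libraries per line), a log2 ratio of -1.03 that fell just under 2-fold when either DMSO or either combination library was left out. TFDP1, the dimerisation partner of E2F factors, had -0.60, under the 2-fold limit.

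Of the transcription factor list 10 of 42 peaks were called higher and 6 lower (38.1%, median 0.311), a share near that of all chromosome 13 peaks. ZMYM2 (1.26 at its main promoter) and GTF3A, the factor TFIIIA for 5S RNA genes (1.22 and 2.104), are proximal. KLF5, KLF12, DACH1 and POU4F1 in the distal stretch had promoter log2 ratios between -0.55 and 0.33, none called. Of the 4 peaks of interferon-responsive genes 2 were called higher, EPSTI1 (1.33) and the CCDC122 and LACC1 promoter (1.82). Both lie below 45 Mb, where 52.0% of all tested peaks were called higher. Among markers of other cells 14 of 55 peaks were higher and 7 lower (38.2%, again near 37.5%, median -0.0281); the promoter of FLT3, a receptor of blood progenitors, had 10.2 ± 3.82 CPM in JJN3 and 3.9 ± 0.39 CPM in KMS11, and that of EDNRB, the endothelin receptor B, 13.3 ± 5.13 CPM in JJN3 and 35.2 ± 4.08 CPM in KMS11 (SD, n = 4 libraries per line).

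The drug comparisons used both lines together, so the lines stood as replicates, and each drug was set against the same 2 DMSO libraries. Pomalidomide gave 8 called peaks higher and 5 lower on chromosome 13, 1.13% of 1146, beside 1.25% of all peaks tested (1.03% higher and 0.228% lower). This was near the share elsewhere. DESeq2 called 0 of them, with 50 chromosome 13 peaks at an unadjusted p under 0.05, and the edgeR count dropped to 1 without KMS11 DMSO or without KMS11 pomalidomide.

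The only called promoter was the one shared by CCDC122, which encodes a coiled-coil protein, and LACC1, an enzyme of macrophage immune metabolism (chr13:43878881-43879746). It had 56.3 CPM with pomalidomide, 36.5 CPM with GNE-781, 54.3 CPM with the combination and 21.8 CPM with DMSO in JJN3. In KMS11 it had 13.5, 7.44, 19.2 and 7.51 CPM under the same treatments. Pomalidomide and the combination were above DMSO in both lines, with log2 changes of 1.13 ± 0.27 (SE; adjusted p = 0.01292) and 1.34 ± 0.26 (adjusted p = 0.0007526); the pomalidomide call was lost without any 1 of its 4 libraries and the combination call without KMS11 combination. Promoters were seldom called: 1 of 289 (0.346%) with pomalidomide, beside 0.49% of all promoter peaks, and 1 of 289 with the combination, beside 1.69%.

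The other 7 higher peaks with pomalidomide lay inside or between genes. A peak inside DLEU1 (chr13:50527893-50528453), in the 13q14 deletion region, had 38.3 CPM with pomalidomide, 19.9 CPM with GNE-781, 30.1 CPM with the combination and 7.52 CPM with DMSO in JJN3. In KMS11 it had 13.5, 8.73, 14.4 and 6.99 CPM. DMSO was lowest in both lines, and the log2 changes were 1.53 ± 0.32 with pomalidomide and 1.38 ± 0.32 with the combination (SE; adjusted p = 0.003288 and 0.004775). Leaving out JJN3 DMSO ended both calls, leaving out JJN3 pomalidomide ended the first, and leaving out KMS11 combination the second.

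The peak near the U6 pseudogene RNU6-72P (chr13:85586413-85586830) had the largest rise, a log2 change of 3.12 ± 0.61 (SE), from few counts: 9, 3, 4 and 0 in JJN3 with pomalidomide, GNE-781, the combination and DMSO, against 60, 4, 68 and 6 in KMS11. Peaks near LINC01075 (2.20), in LINC00452 (1.22) and near LINC00343 (1.04) had pomalidomide above DMSO in both lines. The calls near COL4A2 (1.30), a chain of basement membrane collagen, and LINC00567 (1.26) rested on KMS11: within JJN3 the log2 ratios, with 2 counts added, were 0.05 and 0.19, against 1.83 and 1.64 within KMS11.

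The 5 lower peaks were near NIPA2P5 and LINC00351 and in USP12, a deubiquitinase, TBC1D4, a Rab GTPase-activating protein of vesicle traffic, and RASA3. The NIPA2P5 peak (chr13:79108940-79109535) had 7.33 CPM with pomalidomide, 8.98 CPM with GNE-781, 5.82 CPM with the combination and 18.8 CPM with DMSO in JJN3. In KMS11 it had 8.15, 11, 6.77 and 21.7 CPM, so each drug library lay below DMSO in both lines. Its log2 change with pomalidomide was -1.39 ± 0.31 (SE; adjusted p = 0.009132). The changes were -1.69 in USP12 (chr13:27131203-27131534), -1.23 in TBC1D4 (chr13:75353777-75354222), -1.15 in RASA3 (chr13:114113642-114113965) and -3.10 near LINC00351, whose counts were 1 in JJN3 and 3 in KMS11 with pomalidomide against 6 and 19 with DMSO.

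**Figure D4:**
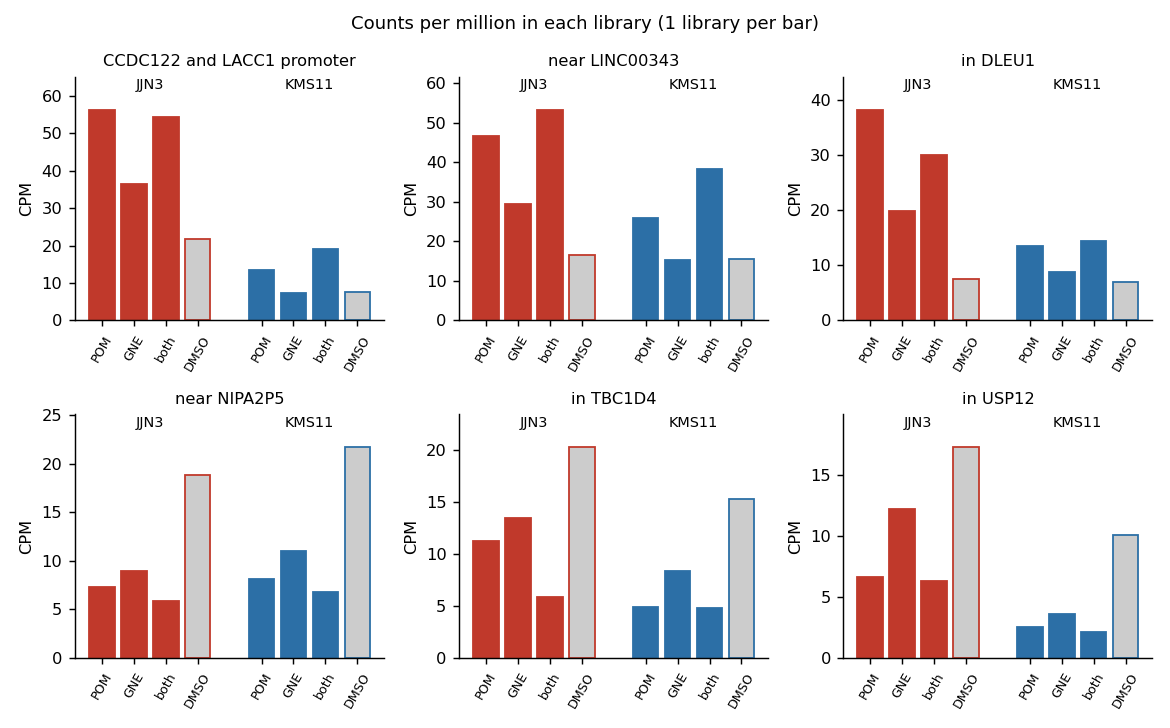
CPM of 6 chromosome 13 peaks in each library, JJN3 left of KMS11 in each panel and, within a line, pomalidomide (POM), GNE-781, both and DMSO; each bar is 1 library, so there is no error bar. In the top row pomalidomide and the combination stand above DMSO in both lines, and in the bottom row they are lower than DMSO, for example 5.82 CPM with the combination against 18.8 CPM with DMSO near NIPA2P5 in JJN3.

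GNE-781 alone gave 0 called peaks on chromosome 13 by edgeR and 0 by DESeq2, beside 0.0209% of all peaks called by edgeR. At an unadjusted p under 0.05 edgeR had 76 of 1146 (6.63%), beside 6.58% of all peaks, and DESeq2 had 20. The 3 lowest p-values on the lower side were in OBI1-AS1, listed as RNF219-AS1 (log2 change -2.08, adjusted p = 0.101), at an ATP11A start (-0.77, adjusted p = 0.2436) and in GPC6, a cell surface proteoglycan (-1.11, adjusted p = 0.3053). On the higher side they were at peaks annotated to LINC00351 (2.02), AL359262.1 (2.68) and LINC00343 (1.19), with adjusted p of 0.3929, 0.4247 and 0.5026. The AL359262.1 peak had 19 counts with GNE-781 and 3 with DMSO over both lines, a ratio of 7.07 after scaling by depth (95% interval 2.08 to 37.3, counting error only).

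The combination gave 28 called peaks higher and 24 lower, 4.54% of 1146, beside 4.79% of all peaks tested (2.11% higher and 2.67% lower), again near the share elsewhere. Of these 24 lay inside genes, 27 between genes and 1 at a promoter. The count is fragile: it was 8 without KMS11 DMSO, 4 without KMS11 combination and 21 without JJN3 combination, and DESeq2 called 5.

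The peak with the lowest adjusted p was between genes near LINC00343 (chr13:105773944-105775344). It had 46.7 CPM with pomalidomide, 29.5 CPM with GNE-781, 53.3 CPM with the combination and 16.5 CPM with DMSO in JJN3, against 25.9, 15.2, 38.3 and 15.5 CPM in KMS11. The combination library was the highest of each line, and the log2 change of 1.42 ± 0.24 (SE; adjusted p = 6.119e-05) was called without any 1 library and by DESeq2. With the combination the CCDC122 and LACC1 promoter, the RNU6-72P, LINC00452, LINC01075 and COL4A2 peaks and that in DLEU1 were called higher as well.

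Other peaks higher with the combination lay near RNA5SP38 (log2 change 2.55), in PCDH9, a protocadherin (2.23), and near NEK3, a mitotic kinase relative (2.09), RNU6-54P (1.47) and HNRNPA1P31 (1.72). For RNA5SP38 (chr13:106151341-106151954) the counts were 13, 8, 11 and 1 in JJN3 with pomalidomide, GNE-781, the combination and DMSO, against 51, 9, 146 and 16 in KMS11, so DMSO had the fewest counts in JJN3 but not in KMS11. All 5 of these calls were lost without KMS11 DMSO and without KMS11 combination.

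On the lower side the TBC1D4 peak had 11.3 CPM with pomalidomide, 13.5 CPM with GNE-781, 5.82 CPM with the combination and 20.3 CPM with DMSO in JJN3, against 4.93, 8.41, 4.81 and 15.3 CPM in KMS11. Its log2 change with the combination was -1.70 ± 0.35 (SE; adjusted p = 0.001189). NIPA2P5 (-1.68), USP12 (-1.87) and RASA3 (-1.35) were called lower too, and so were peaks near PCDH8 (-1.36), RABEPKP1 (-1.12), RP11-464I4.1 (-1.52) and TGDS (-1.61) and in DOCK9, an activator of the GTPase CDC42 (-1.77). Each of these calls was lost without KMS11 combination, and all but the DOCK9 call without KMS11 DMSO.

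Of the lists, that of 13q14 had 2 peaks higher and 1 lower with the combination, among 69 (4.35%, near the 4.54% of all chromosome 13 peaks). Beside DLEU1 these were in CAB39L, a scaffold of the kinase LKB1, with a log2 change of 1.87 at one peak (chr13:49326203-49326544) and -1.19 at another (chr13:49378478-49379075). The markers of other cells had 1 higher (COL4A2) and 3 lower among 55 (7.27%, beside the same 4.54%). All 3 lower peaks were in GPC6 (-0.96, -1.25 and -1.46). The B lineage list had 2 lower among 69 (2.9%), both in DOCK9 (-1.77 and -0.79). In the cell cycle and growth control list 1 peak was higher and 1 lower among 32 (6.25%), and in the interferon list 1 was higher among 4. No peak of the DNA repair (17 peaks) or transcription factor (42 peaks) lists was called with any drug, in lists too short to read against these shares.

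Whether the drug response differed between the lines was tested as an interaction, with drugs taken to add on the log2 scale and 2 residual degrees of freedom. With pomalidomide 1 chromosome 13 peak was called, beside 0.0675% of all peaks, and with GNE-781 1, beside 0.00964%. A peak in ATP11A, a phospholipid flippase (chr13:112725482-112725905), had 27.7 CPM with pomalidomide, 13.5 CPM with GNE-781, 29.6 CPM with the combination and 8.27 CPM with DMSO in JJN3, against 2.79, 4.85, 2.85 and 5.69 CPM in KMS11. Both libraries with pomalidomide were above DMSO in JJN3 and below it in KMS11, and the pomalidomide response in JJN3 was 2.29 ± 0.50 log2 units above that in KMS11 (SE; edgeR adjusted p = 0.02925).

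The second was the OBI1-AS1 peak (chr13:78116861-78117514). It had 2 CPM with pomalidomide, 2.56 CPM with GNE-781, 5.82 CPM with the combination and 1.5 CPM with DMSO in JJN3, against 14.1, 5.17, 4.1 and 29.8 CPM in KMS11. The GNE-781 response in JJN3 was 3.47 ± 0.69 log2 units above that in KMS11 (adjusted p = 0.03042). The JJN3 counts behind it were 6, 4, 12 and 2 in the same order. In the combination comparison over both lines the same peak was called lower (-1.88), although JJN3 alone had a log2 ratio of 1.59 and KMS11 -2.68. The next lowest adjusted p for a line difference were those of a LINC00364 peak with pomalidomide (-1.53, adjusted p = 0.05059) and a PCDH9 peak with GNE-781 (1.83, adjusted p = 0.195), neither called.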

How the data were processed

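ATAC-seq libraries were made by tagmentation with the Nextera kit, per the labels' protocols. The submitters' processing notes name MACS2 2.1.1.20160309, SAMtools 1.10, Bowtie2 2.3.5.1, R 4.1.2, Trim Galore 0.6.4 and cutadapt 2.5, and the build GRCh38. The deposited values are raw counts per peak of a union peak set; how peaks were joined, counted and freed of duplicates is not given in the sources used here. From these counts, edgeR 4.0.16 (R 4.3.3) fitted quasi-likelihood models to all 62234 peaks with a mean of at least 2 CPM, with TMM factors, treatment or line as covariate and Benjamini-Hochberg adjustment over all peaks; DESeq2 1.42.0 was an alternative. Printed CPM are scaled by TMM. Promoter steps of 5 Mb needed at least 5 promoter peaks and used the promoter counts of the other autosomes as library size. The self-test on simulated counts was run first. Named are every step and the 5 largest called line ratios per direction among promoter and among other peaks. Also named are called drug peaks (the 10 lowest adjusted p per direction where more), the 5 lowest adjusted p by line, and list peaks. The peaks around GTF2F2 were chosen after their values were seen. So were the DLEU1, ATP6V1G1P7, RASA3, GAS6, ENOX1, ATP8A2 and ALOX5AP groups, each with at least 5 called peaks. Members and lists were chosen with earlier results of these data known. Gene names not in the peak table come from RefSeq.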

Additional observations from a re-analysis of the deposited data

Results flagged for a closer look

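Among 74 sets of 4 libraries of a line (the steps, the 2 shares and the peaks named for the largest line ratios), 3 had 1 library far from the other 3; chance gives about 1 in 20, and the 4 libraries of a line differ in treatment. The promoter step at 15 to 20 Mb had 0.203 in KMS11 with pomalidomide, against 0.239 to 0.244 in the other KMS11 libraries. The step at 45 to 50 Mb had 1.67 in JJN3 with DMSO, the shallowest library, against 1.89 to 1.91 in the other JJN3 libraries. The SPATA13 promoter had 19.4 CPM in JJN3 with the combination, against 12 to 12.8 CPM in the other JJN3 libraries. None of these moved a line call.

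Drug responses that differed between the lines by a test of the difference were 2. In the fit, which also used the combination libraries, the ATP11A peak at 112725482 had a pomalidomide response 2.287 higher in JJN3 on the log2 scale. Pomalidomide alone over DMSO, with 2 counts added, had log2 ratios of 1.668 in JJN3 and -0.8871 in KMS11. Such single-library ratios are another measure, so their difference need not equal the fitted one. The OBI1-AS1 (RNF219-AS1) peak at 78116861 had a fitted GNE-781 response 3.468 higher in JJN3. GNE-781 alone over DMSO had log2 ratios of 0.5815 in JJN3 and -2.388 in KMS11 at this peak, and its JJN3 values rest on few counts. Their causes were not tested.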

How the results depend on the processing

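The 6 proximal steps stayed higher in JJN3 under every alternative run, and the count of called steps stayed between 12 and 13 without any 1 library; 18 of 20 were called with distal peaks and 9 of 10 with 10 Mb steps. With distal peaks 2 steps reversed, 50 to 55 Mb to 0.1712 and 95 to 100 Mb to 0.2492. The chromosome share ranged from 0.0693 to 0.0982 without any 1 library, past the threshold only without JJN3 DMSO among these, and was 0.0889 with distal peaks, also past it. The 13q14 share ranged from -0.261 to -0.21 without any 1 library and reversed to 0.0488 with distal peaks and to 0.153 against the part above 55 Mb only. Line calls ranged from 390 to 449 without any 1 library and were 393 by DESeq2. Without any 1 library, pomalidomide calls ranged from 1 to 19, GNE-781 calls from 0 to 1 and combination calls from 4 to 55. DESeq2 gave 0 with pomalidomide and 5 with the combination; it gave no adjusted p to 598 and 576 chromosome 13 peaks. GNE-781 gave 1 call with the 4 compared libraries alone, and line by pomalidomide gave 2 with no filter on low counts. The OBI1-AS1 change with the combination ranged from -2.723 to 0.8325 without any 1 library and reversed to 0.8325 without KMS11 DMSO and to 0.6191 without KMS11 combination. The scaling moved the split of combination calls little, 24 of 49 higher with DESeq2's size factors. The cause of these changes was not tested. The line by drug fits were not run without single libraries or with DESeq2. The fits pair libraries by line (drugs) or by treatment (lines) through their covariate. The permutation tests of the 2 shares did not pair libraries by treatment. No further replicate block could be fitted, since each line and treatment has 1 library. With 1 library per line and treatment, leaving out 1 leaves a drug response to the other line alone, whose spread is assumed to match. For fitted line ratios, leaving out either library of a treatment gives nearly the same fit, so these are not separate checks. The library left alone is taken up by its treatment term. A median count of 11 per peak in JJN3 DMSO limits single peaks.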
